A study of Mus musculus with 8 samples.

Results

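The core circadian clock genes were described in the sciatic nerve of SOD1G93A mice and of wild-type mice. The 10 genes were Arntl, Clock, Per1, Per2, Per3, Cry1, Cry2, Gm129 (now named Ciart), Bhlhe40 and Bhlhe41, and every array probe that carries one of these names in the scanner files was taken, which gave 13 of 55681 probes for 10 of 34821 gene names. These genes were chosen with their SOD1G93A and wild-type values known, so the genotype differences below are a description of values that helped to choose them. The SOD1G93A mice were 4 males aged 60 days that carry as a transgene a mutant form of human superoxide dismutase 1 used to model amyotrophic lateral sclerosis, and the controls were 4 wild-type males of the same age. The labels used here state neither the promoter that drives the transgene nor the hour at which nerves were collected. Each nerve RNA was labelled with Cy3 and hybridised beside a Cy5-labelled reference pool, which held neonatal heart, liver and kidney RNA from both genotypes, and no dye was swapped. The 4 samples of a genotype are biological replicates by their labels. All values are log2 ratios of nerve to reference unless stated, so 0 means the same signal as in the pool after normalization and 1 means a doubling.

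The clock is a feedback loop of transcription that runs in nearly every cell. ARNTL (also called BMAL1) and CLOCK form a dimer that binds E-box sequences and activates Per, Cry, Gm129 and Bhlhe genes, whose proteins then hold the dimer back. The nuclear receptors NR1D1 and NR1D2 repress Arntl and the ROR receptors activate it through ROR elements, so that in mouse tissues Arntl transcript peaks near the end of the night and Per1, Per3 and Gm129 near the end of the day. Peripheral nerve, with its Schwann cells, fibroblasts and vessels, runs such a clock like other tissues outside the brain.

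Sequences near transcript starts of the 4 measured members with the largest differences are shown because they carry these elements. They were read from RefSeq on GRCm38.p6, which listed 8 of the 10 genes, 5′ to 3′ on the gene's strand. Gm129, Per3 and Per1 are shown as the 250 bases before a transcript start. Motifs were searched on both strands and matches are in capitals: the E-box CACGTG, its variant CACGTT, the D-box core TTANGTAA bound by DBP, TEF, HLF and NFIL3, the cyclic AMP response element TGACGTCA, and the ROR element in the forms TAGGTCA, as well as TGGGTCA, and as AAAGTAGGT. In the second Arntl site the forms AAAGTAGGT and TAGGTCA overlap, and no other matches overlapped. Gm129 lies on chr3:95882229-95882478 (minus strand), Per3 on chr4:151044666-151044915 (minus strand) and the first Per1 start on chr11:69098699-69098948 (plus strand). The Arntl sites are 30 bases each around the ROR elements near its second start, on chr7:113207491-113207520 and chr7:113207527-113207556 (plus strand). These elements begin at -10 and 26 from that start, so the second lies after it.
Gm129: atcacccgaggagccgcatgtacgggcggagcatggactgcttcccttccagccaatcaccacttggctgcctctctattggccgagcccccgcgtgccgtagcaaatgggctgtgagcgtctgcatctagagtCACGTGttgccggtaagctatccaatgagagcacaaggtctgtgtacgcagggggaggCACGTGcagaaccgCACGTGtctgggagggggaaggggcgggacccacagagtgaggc
Per3: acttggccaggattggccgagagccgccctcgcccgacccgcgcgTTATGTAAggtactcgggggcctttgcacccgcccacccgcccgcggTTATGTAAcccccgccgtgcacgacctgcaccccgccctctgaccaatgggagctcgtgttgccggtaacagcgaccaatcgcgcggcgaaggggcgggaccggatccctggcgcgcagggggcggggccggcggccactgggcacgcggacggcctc
Per1: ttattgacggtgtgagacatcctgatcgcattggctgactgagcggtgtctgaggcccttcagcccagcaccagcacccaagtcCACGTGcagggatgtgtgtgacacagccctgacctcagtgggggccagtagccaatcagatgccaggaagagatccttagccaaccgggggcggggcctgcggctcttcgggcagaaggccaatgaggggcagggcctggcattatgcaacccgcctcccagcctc
Arntl site 1: gattggtcggAAAGTAGGTtagtggtgcga
Arntl site 2: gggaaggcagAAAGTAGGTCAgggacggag

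Gm129 held 3 E-boxes, a number reached in 0.0609% of 32851 promoters, where 6.02% held at least 1. Per3 held 2 D-box cores, against 0.0731% of promoters with 2 or more and 2.06% with any. Per1 held 1 E-box before its first start and 0 matches before its second. AAAGTAGGT stood in 0.183% of windows of 300 bases, which run from 250 bases before to 50 after a start, and 2 copies, as in the second Arntl window, stood in 0.00913%. Among the other members, Bhlhe41 had 1 CACGTG, Cry1 had 1 CACGTG and 1 CACGTT, Cry2 had 1 CACGTT, and none of these letters lay in the 3 Clock windows. A match is a sequence description and not a binding site measured here.

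Of the 10 genes, 7 had a probe whose Cy3 signal passed the background filter of 4 or more arrays out of 8: Arntl, Clock, Per1, Per3, Cry2, Gm129 and Bhlhe40. Arntl rose in SOD1G93A nerve, while Cry2 and Gm129 fell. These 3 of 7 measured members were called (limma, Benjamini-Hochberg adjusted p under 0.05 over all 15344 gene names), where 0.163% of all gene names were called, 0.0717% higher and 0.0912% lower. Clock averaged higher in SOD1G93A nerve, and Per1, Per3 and Bhlhe40 averaged lower, without being called. In all 7 the arrays of the genotypes did not overlap, 2 of them higher and 5 lower in SOD1G93A nerve, where 7.98% of 15328 gene names with all 8 values did not overlap, 3.66% higher and 4.32% lower. Gm129 is in both counts although its Cy3 signal was above background on 0 SOD1G93A arrays, and without it 2 of 6 members were called and 6 of 6 did not overlap. The members were chosen on this contrast, so nothing is read from these counts. The median difference, SOD1G93A minus wild-type, was -0.61 over the 7 members and -0.02 over all gene names.

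**Figure D1:**
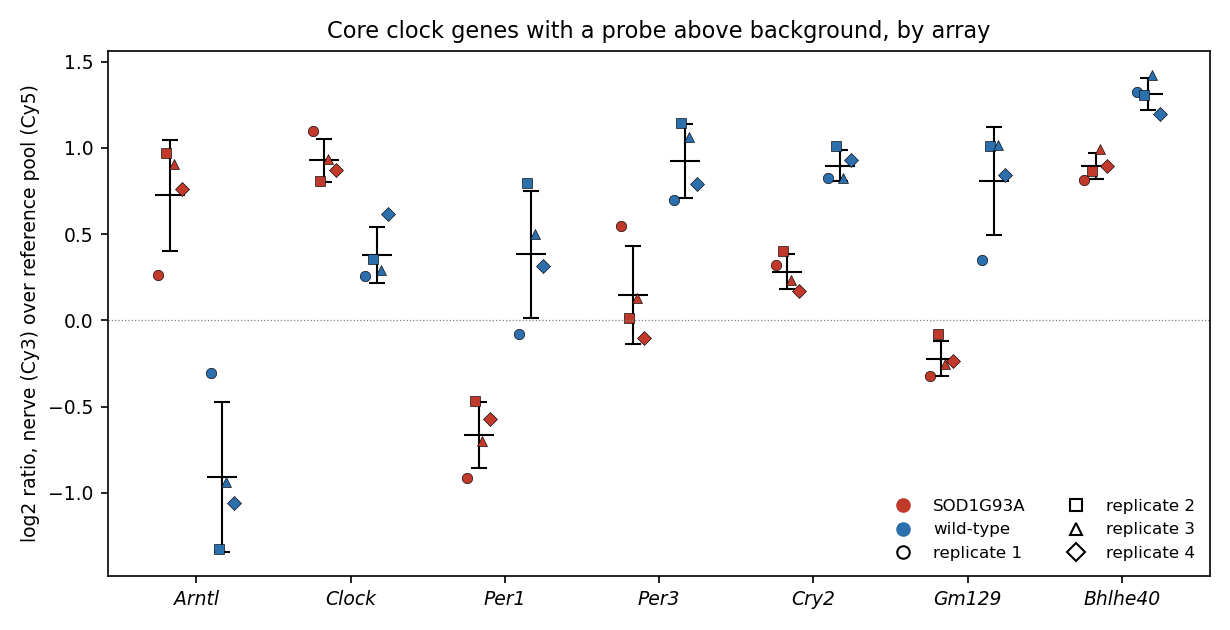
Log2 ratio of nerve to reference pool (vertical axis) for the 7 core clock genes with a probe above background, SOD1G93A on the left of each pair and wild-type on the right. Points are single arrays, with a shape for each replicate number, and bars are the mean ± SD of 4 arrays. The SOD1G93A arrays lie above all wild-type arrays for Arntl and Clock and below them for the other 5 genes.

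Among the activators, Arntl had ratios of 0.26, 0.97, 0.90 and 0.76 on the 4 SOD1G93A arrays, against -0.31, -1.33, -0.94 and -1.06 on the 4 wild-type arrays. Every SOD1G93A ratio of Arntl thus lay above 0 and every wild-type ratio below 0, and the nearest arrays of the genotypes, both numbered 1, were 0.57 apart. The 0 is set by the normalization within each array and no dye was swapped, so the level against the pool is not read from it. The mean was 0.72 ± 0.32 in SOD1G93A nerve and -0.91 ± 0.43 in wild-type nerve (SD, n = 4 each), a difference of 1.63 ± 0.23 (SE), or 3.10-fold. By size it was the 29th of 15344 gene names. The Arntl probe lies on chromosome 7, 120457261 to 120457320 on mm9, the build of all probe positions here. In bulk nerve RNA, fewer cells of a type and less RNA per cell cannot be told apart, for this gene and all that follow.

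Clock, the partner of ARNTL and a gene known for a weak rhythm, had ratios of 1.10, 0.81, 0.94 and 0.87 in SOD1G93A nerve, against 0.26, 0.35, 0.29 and 0.62 in wild-type nerve. The gap between genotypes was only 0.19, set by the highest wild-type array, replicate 4. Clock averaged 0.93 ± 0.12 in SOD1G93A nerve and 0.38 ± 0.16 in wild-type nerve (SD, n = 4 each), a difference of 0.55 ± 0.10 (SE) that was not called. Its probe lies on chromosome 5, 76641377 to 76641436.

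The period proteins are repressors of the ARNTL dimer. Per1, which also responds within minutes to light, cyclic AMP and glucocorticoid signals, had ratios of -0.91, -0.47, -0.70 and -0.57 in SOD1G93A nerve, against -0.08, 0.80, 0.50 and 0.32 in wild-type nerve. All SOD1G93A values lay below all wild-type values, and the lowest of each genotype was on its array numbered 1. The means were -0.66 ± 0.19 in SOD1G93A nerve and 0.38 ± 0.37 in wild-type nerve (SD, n = 4 each), a difference of -1.05 ± 0.18 (SE), not called. This probe lies on chromosome 11, 68923364 to 68923423. A further Per1 probe, A_55_P2019327, designed on a separate transcript at 68919895 to 68919954, was above background on 0 of 8 arrays, and the genotypes overlapped on it, which leaves 1 informative Per1 probe.

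Per3 had ratios of 0.55, 0.01, 0.13 and -0.10 in SOD1G93A nerve, against 0.70, 1.14, 1.06 and 0.79 in wild-type nerve. SOD1G93A replicate 1 came within 0.15 of the lowest wild-type array, while the other 3 were farther off. The mean was 0.15 ± 0.28 in SOD1G93A nerve and 0.92 ± 0.21 in wild-type nerve (SD, n = 4 each). The difference of -0.78 ± 0.16 (SE) was not called. Its probe, on chromosome 4 at 150379256 to 150379315, was above background on 3 SOD1G93A and 4 wild-type arrays.

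Per2, the period gene with the strongest known role in the period length of the mouse clock, did not pass the filter. Its Cy3 signal cleared background in 0 of 4 SOD1G93A and 3 of 4 wild-type nerves, and its ratios were -1.05, -1.10, -1.16 and -0.87 in SOD1G93A nerve, against -0.47, -0.26, -0.76 and -0.73 in wild-type nerve. Against the lowest signal that counted as above background, Per2 was at least 1.22-fold lower in SOD1G93A nerve, a bound in which the dim group takes, per array, the higher of its own signal and the lowest signal above background. The arrays of the genotypes did not overlap, but the size cannot be read beyond that: the difference was -0.49 here and -1.90 with the scanner software's own processed signals. The probe lies on chromosome 1, 93313046 to 93313105.

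The cryptochromes are the partners of the period proteins in repression. Cry2 had ratios of 0.32, 0.40, 0.23 and 0.17 in SOD1G93A nerve, against 0.83, 1.01, 0.82 and 0.93 in wild-type nerve. These were among the tightest groups of the loop, with means of 0.28 ± 0.10 in SOD1G93A nerve and 0.90 ± 0.09 in wild-type nerve (SD, n = 4 each). Cry2 fell by 0.61 ± 0.08 (SE) on the log2 scale. The probe lies on chromosome 2, 92243807 to 92243866.

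A further Cry2 probe, designed on transcript variant NM_001113333 at 92251417 to 92251476, did not separate the genotypes. It gave 0.01, -0.68, -0.54 and -0.98 in SOD1G93A nerve, against -0.25, 0.06, -0.31 and -0.15 in wild-type nerve. SOD1G93A replicate 1 lay above 3 of the 4 wild-type arrays, and the difference was -0.38 ± 0.19 (SE). The Cry2 probes thus share a direction but not the separation, and with the mean of both probes the Cry2 difference was -0.50 ± 0.12 (SE) and was not called.

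Cry1, which is known to peak late in the night and to delay the release of repression, was not well above background in Cy3 on any of the 8 arrays. Its probe, on chromosome 10 at 84594731 to 84594790, was above background in Cy5 on all 8, so the sequence was detected in the reference pool. The Cry1 ratios of -0.52, -0.55, -0.73 and -0.44 in SOD1G93A nerve overlapped with -0.69, -0.51, -0.95 and -0.49 in wild-type nerve. Neither genotype gave a measured level, so no fold is stated.

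**Figure D2:**
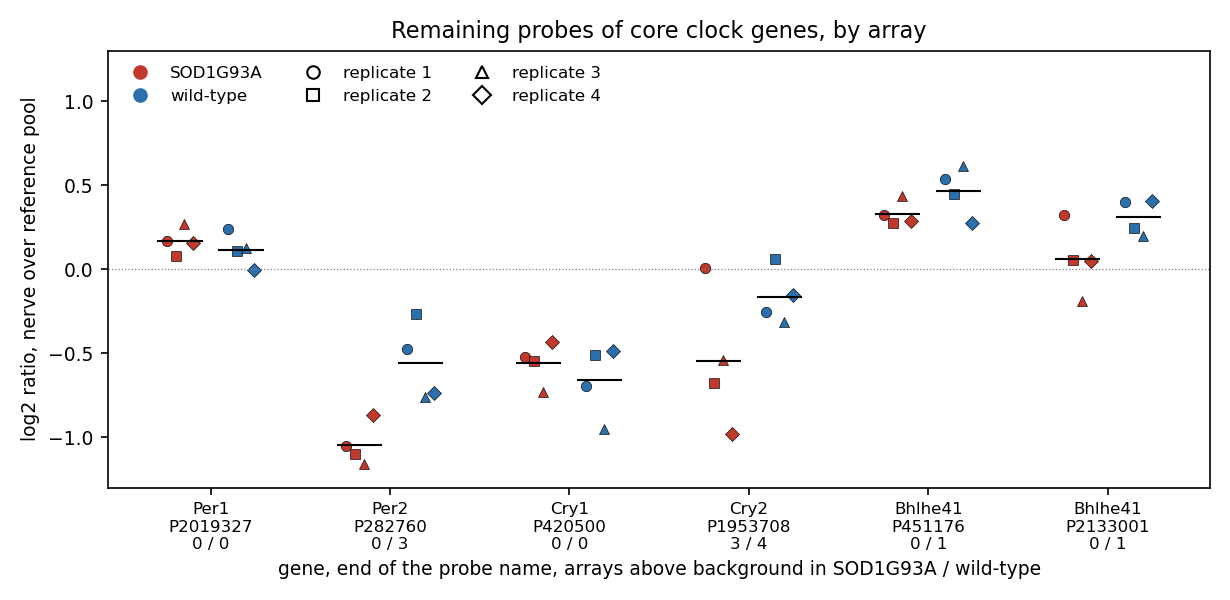
Log2 ratio of nerve to reference pool (vertical axis) for the 6 core clock probes that are not the brightest kept probe of their gene, SOD1G93A left and wild-type right. Points are arrays, lines are means of 4, and the numbers under each probe are the arrays above background in SOD1G93A and wild-type nerve. Per2 alone keeps the genotypes apart, and it was above background on 0 SOD1G93A arrays and 3 wild-type arrays.

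Gm129 encodes CHRONO, a repressor that binds ARNTL and is itself switched on through E-boxes. Its ratios were -0.32, -0.08, -0.25 and -0.23 in SOD1G93A nerve, against 0.35, 1.01, 1.01 and 0.85 in wild-type nerve. Its Cy3 signal cleared background in 0 of 4 SOD1G93A and 4 of 4 wild-type nerves, so it passed the filter only through the wild-type nerves. The fitted difference of -1.03 ± 0.15 (SE) was called, and against the lowest signal above background Gm129 was at least 1.50-fold lower in SOD1G93A nerve. The probe lies on chromosome 3, 95682433 to 95682492.

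Bhlhe40 and Bhlhe41 encode DEC1 and DEC2, repressors that compete with the ARNTL dimer at E-boxes. Bhlhe40 had ratios of 0.82, 0.87, 1.00 and 0.90 in SOD1G93A nerve, against 1.32, 1.31, 1.43 and 1.20 in wild-type nerve. Its groups were as tight as those of Cry2, with means of 0.89 ± 0.08 in SOD1G93A nerve and 1.31 ± 0.09 in wild-type nerve (SD, n = 4 each), and a difference of -0.42 ± 0.08 (SE), the smallest of the 7, that was not called. The probe lies on chromosome 6, 108616309 to 108616368. Bhlhe41 was near background: each of its 2 probes was above it on 0 SOD1G93A arrays and 1 wild-type array. The genotypes overlapped on both, at 145811275 to 145811334 and 145812652 to 145812711 of chromosome 6, and no fold is stated.

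Set against textbook phases, Arntl, whose transcript is known to peak from the end of the night to the early morning, had a higher mean in SOD1G93A nerve. Per1 and Per3, which peak near the end of the day, had lower means there. Clock and Cry2 have weak rhythms in most tissues and the phase of Bhlhe40 differs between tissues, so these 3 are not placed. Gm129, known to peak near the end of the day, Per2, around dusk, and Cry1, in the later night, had no level above background in SOD1G93A nerve, and Gm129 and Per2 have only the bounds given above.

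The reference channel gave the same comparison on RNA that did not differ between arrays. In Cy5 alone, 0 of the 7 members were called by limma at an adjusted p under 0.05, where 0.215% of all gene names were. At an unadjusted p under 0.05, 1 of the 7 members passed, where 14.4% of all gene names did. It was Gm129, with a Cy5 difference of -0.14 ± 0.04 (SE), SOD1G93A minus wild-type, and its Cy5 signal was above background on 4 of 8 arrays. With the Rquantile scaling of limma 0 members were called and 1 passed unadjusted, beside 12 and 2079 of the 15344 gene names. With the processed Cy5 signal 0 members were called and 2 passed, beside 0 and 1015 gene names. The Arntl difference in Cy5 was -0.00 ± 0.05 (SE), and that of Per1 was 0.02 ± 0.04.

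**Figure D3:**
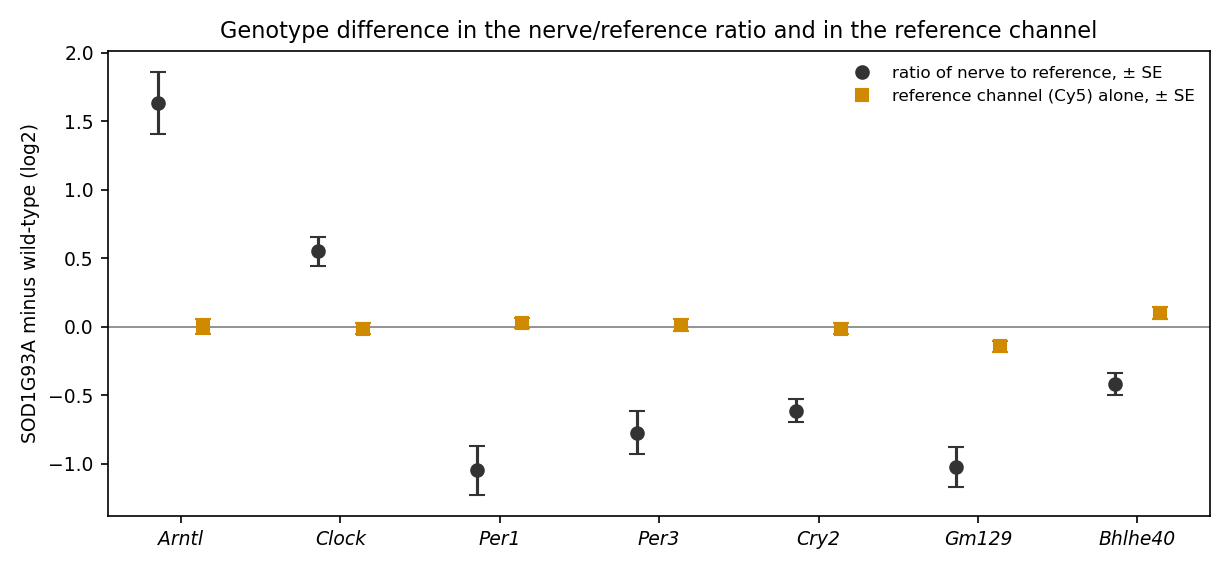
SOD1G93A minus wild-type on the log2 scale (vertical axis) for the 7 measured core clock genes, as the nerve to reference ratio (dark circles) and in the Cy5 reference channel alone (orange squares), each ± SE. The ratio differences run from -1.05 for Per1 to 1.63 for Arntl, and the largest Cy5 difference in size is -0.14, for Gm129.

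Wild-type replicate 1 was the wild-type array nearest to the SOD1G93A values for Arntl, Per1, Per3 and Gm129. SOD1G93A replicate 1 was the SOD1G93A array nearest to the wild-type values for Arntl and Per3, and the farthest from them for Clock, Per1, Gm129 and Bhlhe40. The arrays numbered 1 were also those at the ends of the first principal component of all gene names, which held 36.4% of the variance, with SOD1G93A replicate 1 at -30.3, wild-type replicate 1 at 33.7 and the other 6 arrays between -10.8 and 14.7. On the 6 arrays numbered 2 to 4, the differences were 1.99 ± 0.11 for Arntl, 0.45 ± 0.10 for Clock, -1.12 ± 0.13 for Per1 and -0.98 ± 0.11 for Per3 (SE). Those for Cry2, Gm129 and Bhlhe40 were -0.65 ± 0.09, -1.14 ± 0.08 and -0.39 ± 0.08 (SE). Of the 7 members, 5 were called on these 6 arrays, all but Clock and Bhlhe40, where 1.53% of all gene names were called.

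The calls depended on single arrays. The directions could not, since the arrays of the genotypes did not overlap for any of the 7 members. Without SOD1G93A replicate 1, 4 members were called (Arntl, Cry2, Gm129 and Per3) beside 1.17% of all gene names, and without wild-type replicate 1, 3 were (Arntl, Gm129 and Per1) beside 0.0587%. limma called 0 members without any one of SOD1G93A replicates 2 to 4 or wild-type replicates 2 to 4. Over all gene names it called 9, 4 and 3 without these SOD1G93A replicates, and 3, 3 and 16 without these wild-type replicates. All 7 members had an unadjusted p under 0.05 each time. With the replicate number as a block, limma called 0 members, with 7 at an unadjusted p under 0.05, and 1 gene of 15344 (0.00652%). The labels do not state whether the numbers pair the arrays. The unadjusted share of all gene names was not taken for these fits, and the members were chosen on this contrast. Nothing is therefore read from the unadjusted counts. Leaving out single arrays moved the Arntl difference between 1.49 and 1.83, and over 20 alternatives Arntl kept its sign in all 20 and its call in 9, and Cry2 its sign in all 20 and its call in 8. Among the 20, the processed signals and the deposited series table hold the same ratios and are not separate evidence.

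**Figure D4:**
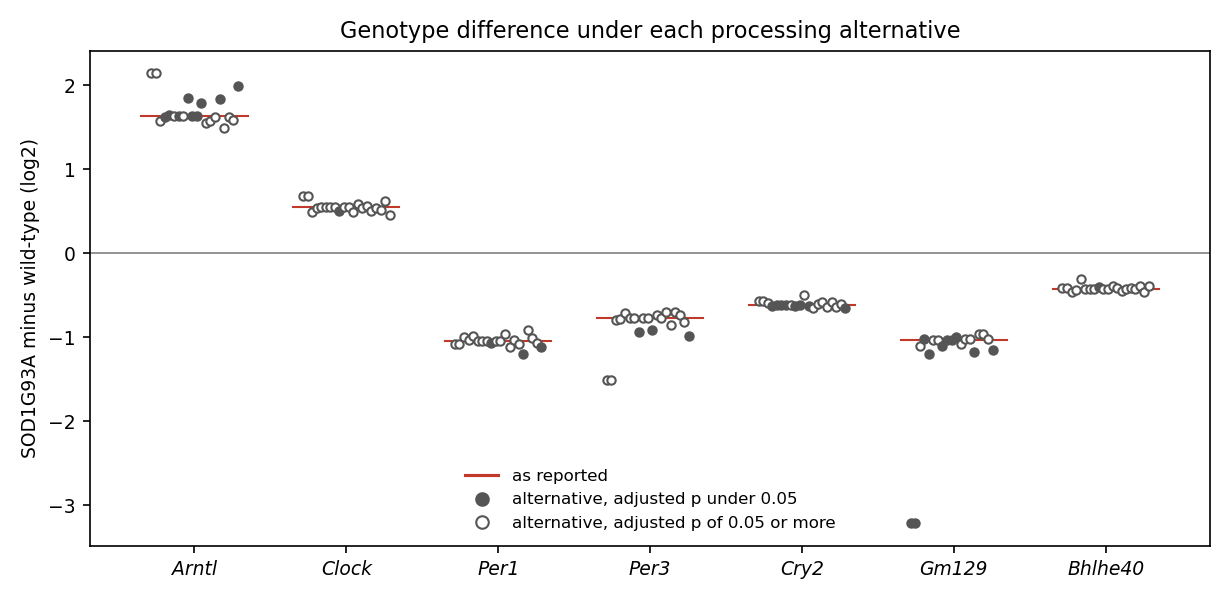
SOD1G93A minus wild-type on the log2 scale (vertical axis) for the 7 measured core clock genes under each processing alternative, with the red line as reported. Filled points were called at an adjusted p under 0.05 and open points were not. No gene changes sign, and the spread is widest for Gm129, from -3.21 to -0.96, whose SOD1G93A signal was not above background.

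The clock paralogs and output factors were a list of 14 genes of which 12 were measured. In SOD1G93A nerve 2 were higher and 10 lower, with a median difference of -0.32. Of these, 4 were called, all lower, where 0.163% of all gene names were called, 0.0912% lower. The list was chosen with earlier results of these data known, so nothing is read from its counts. The called genes were Dbp, Nr1d1, Nr1d2 and Tef. Dbp, a D-box activator whose own gene is a direct ARNTL target, had ratios of 0.76, 0.88, 0.73 and 0.73 in SOD1G93A nerve, against 2.97, 3.31, 3.35 and 3.15 in wild-type nerve. Its lowest wild-type array lay over 2 log2 units above its highest SOD1G93A array, the clearest separation among the clock genes measured.

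The repressors of Arntl moved opposite to it. Nr1d1 had ratios of 0.16, 0.55, 0.51 and 0.49 in SOD1G93A nerve, against 2.16, 1.94, 2.11 and 1.85 in wild-type nerve. Nr1d2 had ratios of -0.46, -0.67, -0.62 and -0.64 in SOD1G93A nerve, against 0.45, 0.39, 0.60 and 0.59 in wild-type nerve. Neither gene overlapped between genotypes, and unlike Arntl, each kept its call in 18 of 20 alternatives. Rora, an activator of Arntl, differed less, at -0.21 ± 0.08 (difference ± SE), also with no overlap between genotypes, and was not called. Over all gene names, 7.98% did not overlap.

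Nfil3, the D-box repressor, was the gene in the list with the highest difference. It had ratios of -0.81, 0.13, 0.14 and 0.29 in SOD1G93A nerve, against -1.18, -1.55, -2.17 and -2.12 in wild-type nerve, and the difference of 1.69 ± 0.28 (SE) was not called. The D-box activators other than Dbp differed the other way: Tef fell by 0.77 ± 0.09, and Hlf gave -0.67 ± 0.14 (SE), not called. Arntl2, the paralog of Arntl, gave -0.09 ± 0.10, and Nampt, an output enzyme of NAD synthesis, gave -0.17 ± 0.11 (SE), with overlapping groups for both. Npas2, the paralog of Clock, was not measured above the filter.

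**Figure D5:**
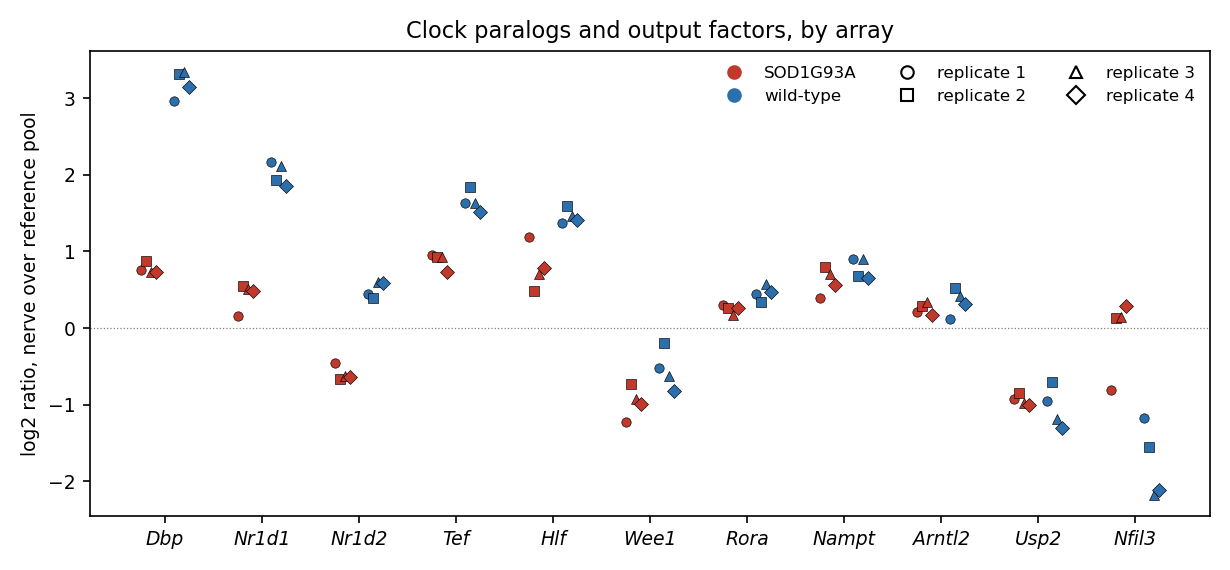
Log2 ratio of nerve to reference pool (vertical axis) for 11 of the 12 measured clock paralogs and output factors, ordered by difference from the lowest, SOD1G93A left and wild-type right, with a shape for each replicate number. Dbp, Nr1d1, Nr1d2, Tef, Hlf and Rora lie lower on every SOD1G93A array than on every wild-type array, and Nfil3 lies higher.

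A further list of clock-related genes was counted beside all gene names. Of 32 kinases, ubiquitin ligases and cofactors of the clock, all measured, 18 were higher and 14 lower in SOD1G93A nerve, 0 were called by limma and 4 had an unadjusted p under 0.05, where 11.4% of all gene names did, and the median difference was 0.02. The differences ran from -0.55 for Tipin to 0.56 for Sfpq. These were the 2 genes of the list whose arrays did not overlap between genotypes, where 7.98% of all gene names did not. Neither count is read as a trait of the list. The casein kinases that phosphorylate period proteins gave 0.06 ± 0.11 for Csnk1d and -0.03 ± 0.09 for Csnk1e (SE). Fbxl21, of a ligase that marks cryptochromes, gave -0.15 ± 0.10, and Nono, a cofactor of period proteins, gave -0.09 ± 0.08 (SE). These 4 had overlapping groups.

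By the mean absolute difference of centred log2 ratios over the 8 arrays, the 5 genes most like Arntl were Nfil3 at 0.249, Klk1b24 at 0.292, Hsph1 at 0.314, Lgals3 at 0.338 and Ms4a7 at 0.338. The 5 most like Arntl with its sign turned were Nudt19 at 0.332, Nr1d2 at 0.348, Zfp780b at 0.351, Pop4 at 0.354 and Gm129 at 0.368. After Gm129, the members nearest to the turned pattern were Per1 at 0.397 and Per3 at 0.429, while Cry2 stood at 0.515. The measure includes the genotype difference, so these genes are a description of 8 arrays.

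Per1 is also an acute-response gene, so 2 lists were read beside it. Fos and Egr1, immediate early genes, differed by 2.68 ± 0.55 and 2.21 ± 0.63 (SE), neither called. The genotypes overlapped for Egr1 but not for Fos. Of the 12 immediate early genes measured 10 were higher and 2 lower in SOD1G93A nerve. Jun was the 1 called, where 0.163% of all gene names were called. At an unadjusted p under 0.05, 10 of the 12 passed, where 11.4% of all gene names did. The genotypes did not overlap for 6 higher and 1 lower gene, where 3.66% and 4.32% of all gene names did not. The list was chosen with earlier results of these data known, so nothing is read from these counts. Their score, the mean of the centred ratios over the genes, ran from -0.23 to 1.03 in SOD1G93A nerve and from -0.60 to -0.39 in wild-type nerve. The scores did not overlap, while Per1 was lower in SOD1G93A nerve. Of the 10 glucocorticoid-responsive genes, 2 were higher and 8 lower, and limma called 0. At an unadjusted p under 0.05, 2 of the 10 passed, where 11.4% of all gene names did. Fkbp5 gave -0.12 ± 0.50 and Tsc22d3 gave -0.30 ± 0.28 (SE), both with overlapping groups. Their part in the Per1 values was not tested.

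The Schwann cell markers were far above the reference pool in both genotypes, the 10 averaging from 2.84 to 4.94 in SOD1G93A nerve and from 2.79 to 5.30 in wild-type nerve. Of these, 9 were higher and 1 lower in SOD1G93A nerve, with 0 called by limma and 1 at an unadjusted p under 0.05. All 8 measured skeletal muscle markers and all 9 adipocyte markers had lower means in SOD1G93A nerve, as did all 6 of smooth muscle and 7 of 8 of endothelium, while 6 of 8 macrophage markers had higher means. limma called 0 in each of these lists, and at an unadjusted p under 0.05 the counts were 5 for skeletal muscle, 4 for adipocytes, 5 for smooth muscle, 6 for endothelium and 4 for macrophages, where 11.4% of all gene names passed. The muscle score ran from -1.05 to -0.78 in SOD1G93A nerve and was 3.07, 2.07, -0.82 and -0.60 in wild-type replicates 1 to 4. The endothelial score ran from -0.45 to -0.11 in SOD1G93A nerve and from 0.03 to 0.44 in wild-type nerve. The other scores overlapped between genotypes. In SOD1G93A nerve they ran from -1.47 to -0.06 for adipocytes, -0.73 to -0.37 for smooth muscle and -0.43 to 0.50 for macrophages. In wild-type nerve these ran from -0.35 to 1.20, -0.43 to 1.39 and -0.36 to -0.05. The highest adipocyte and smooth muscle scores were those of wild-type replicates 1 and 2. The part of these markers in the clock values was not tested.

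On each array between 35.5% and 41.7% of 59305 spots were well above background in Cy3 and 0 were saturated. Array pairs correlated at 0.88 to 0.98 over gene names, which are not independent replicates. A single slide and scan day held the 8 arrays, and the first number of the position on it differed by genotype, so position and genotype cannot be told apart. Mouse Sod1, which does not show the human transgene's level, differed by -0.17 ± 0.11 (SE) and was not called.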

How the data were processed

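The 8 arrays were read from the deposited scanner files, which hold spot intensity and local background on a linear scale for Cy3 and Cy5. Agilent Feature Extraction made them, in version 11.5.1.1 per the file headers and in 11.0.1.1 per the submitters' processing notes, which also list limma. The deposited series table holds the log10 ratio of Cy5 over Cy3, equal to that of the scanner files, with a median of 0 on each array. It was used with the sign turned as an alternative. Other deposited values are spot flags.

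Mean intensities were corrected by normexp with an offset of 50 on the median background and by loess within each array, with no weight on control spots and no scaling between arrays. Spots marked as outliers were left out and spots of a probe averaged. A probe was kept if its Cy3 signal was flagged as well above background on 4 or more arrays, as for 19839 of 55681. The brightest kept probe stood for each of 15344 gene names.

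Genotypes were compared on log2 ratios of Cy3 to Cy5, SOD1G93A minus wild-type, with limma 3.58.1 (lmFit, then eBayes) under R 4.3.3 with data.table, version 1.17.8, 2-sided, with Benjamini-Hochberg adjustment at 0.05. The procedure was tested on simulated data. The same fit was run on Cy5 after Aquantile scaling. Gene names are those of the array design. The transcripts of 11 of 13 member probes matched the RefSeq gene list. Probe positions are mm9, per the file headers, and promoter positions are GRCm38.p6.

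The members and all gene lists were chosen with earlier results of these data known. Genes named are all member probes, clock genes picked by role (Npas2, Arntl2, Nr1d1, Nr1d2, Dbp, Nfil3, Rora, Csnk1d, Csnk1e, Fbxl21, Nono, Nampt), the 5 genes most like Arntl and the 5 most like it with the sign turned, and Fos, Egr1, Fkbp5 and Tsc22d3 beside Per1. Tef, Hlf, Tipin, Sfpq, Jun and Sod1 were named after their values were seen. Some genes of these lists are counted but not reported singly here. Alternatives covered background correction, normalization, channel, filter, replicate block, array weights, variance model, probe choice and leaving out each array. The number of arrays limits the precision.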

Additional observations from a re-analysis of the deposited data

How the results depend on the processing

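All 7 measured members kept their sign in every alternative that gave them a value (20 for Arntl, Clock, Per1, Cry2 and Bhlhe40, and 19 for Per3 and Gm129, which dropped out when all 8 arrays had to be above background). Leaving out or weighting arrays could not turn these signs, since the genotypes did not overlap. The replicate block, the filters and the variance model left the differences themselves unchanged. The numbers of calls varied. Against 3 members and 25 genes as reported, processed signals gave 1 and 6, median centring 0 and 1, and no filter 1 and 16. The series table also gave 1 and 6, but it holds the ratios of the processed signals. It therefore repeats that alternative, and both stand among the 20. The replicate block gave 0 and 1. Over all gene names, same-numbered arrays had deviations correlated at -0.16, 0.04, -0.11 and 0.10. For single genes, the block lowered the SE of Per1 from 0.18 to 0.11 and that of Fkbp5 from 0.50 to 0.20. It also lowered that of Gm129 and raised those of Arntl, Clock, Per3, Cry2 and Bhlhe40. Whether the numbers pair the arrays is not stated in the labels and cannot be told from these values. Array weights gave 7 and 421, and the 6 arrays numbered 2 to 4 gave 5 and 234. Leaving out single arrays gave 0 to 4 members and 3 to 180 genes, the highest without SOD1G93A replicate 1.

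Genes with differences near 0 turned sign. Csnk1e was at 0.0041 with processed signals and with the series table, 0.0078 with array weights, 0.015 on the 6 arrays, and between -0.071 and 0.034 without single arrays. Csnk1d was at -0.10 with the mean of its probes. With Cy3 alone, Fbxl21 was at 0.084, Nono at 0.0063 and Fkbp5 at 0.0099, and without single arrays Fkbp5 ran from -0.43 to 0.38. The difference of -0.14 for the Bhlhe41 probe A_51_P451176 turned to 0.01 with Cy3 alone. The cause of these shifts was not tested. Signal over background limits Per2, Cry1, Bhlhe41 and the SOD1G93A level of Gm129.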
